A study of Homo sapiens with 14 samples.

Results

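The 7 arrays described here come from HepG2 cells transfected with a negative control and collected at 4, 8, 16, 24, 32, 72 and 120 h after transfection, 1 array per time. They were chosen by their labelled transfection alone and make up 7 of the 14 arrays of the series. The other 7 arrays hold HepG2 cells transfected with miR-124, a small RNA of neurons, at the same times. HepG2 is an established cell line from a human liver tumour that keeps much of the secretory and lipid metabolism of a hepatocyte. The labels name no further detail of the control RNA, the medium or the cell density, and no array of untransfected cells was analysed here, so time in culture and time after transfection cannot be told apart.

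Hepatocyte-derived cells make most plasma proteins, and they build and export cholesterol and triglyceride. Genes of cholesterol synthesis share one switch: a membrane-bound transcription factor, sterol regulatory element-binding protein, stays in the endoplasmic reticulum while sterol is plentiful and is released to the nucleus when it is not. Genes of mitosis are transcribed mainly shortly before and during cell division, through promoters held silent in resting cells, while genes of DNA replication peak earlier in the cycle.

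Expression is given as log2 values per probe set, made with RMA by the submitters, and each gene is represented by the probe set whose mean over the 14 arrays was highest. The slope is the log2 change per doubling of the time after transfection, fitted over the 7 control arrays. The late minus early difference is the mean of the 72 and 120 h arrays minus that of the 4, 8 and 16 h arrays, on the log2 scale. Errors after ± are standard errors of the fit, and adjusted p-values are from limma over 13137 genes with Benjamini-Hochberg adjustment. A call means an adjusted p under 0.05. With 1 array per time these p-values measure the spread of single arrays around the fitted line or within a window, which may be technical, and not the spread between cultures. In such bulk samples, fewer cells that express a gene and less of its RNA per cell cannot be told apart.

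The label of a liver cell line was checked against markers. ALB, which encodes albumin, lay between 13.79 and 13.88 in all 7 arrays, and its slope was 0.01 ± 0.02 with an adjusted p of 0.87. The alpha-fetoprotein gene AFP lay between 13.54 and 13.91, and the serpin gene SERPINA1 between 13.91 and 14.04. Of the other liver markers TTR and FGB were called higher in the late minus early difference, by 1.64 and 0.63. APOA1, APOB, TF, KRT8 and KRT18 were called in neither test. HNF4A, also set as a marker, had no probe set named here. The mean level over 12 blood cell markers ran from 6.36 to 6.57, over 15 fibroblast and endothelial markers from 6.49 to 6.65, over 15 neuron markers from 6.39 to 6.47 and over 10 kidney markers from 6.62 to 6.83. These means hide members well above them. The highest of each list averaged 8.02 for HBB, 9.11 for ACTA2, 11.87 for TUBB3 and 9.45 for AQP3 over the control arrays. RMA values hold no zero, and 6.19 was the median level over probe sets. No member of these marker lists had a called slope, and 1, the B cell gene CD79A, was called in the late minus early difference, at 0.46 with an adjusted p of 0.039.

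One array stood apart, and a measure of RNA quality moved with time. The 120 h array correlated with the other control arrays at a mean of 0.971, against means between 0.986 and 0.991 for the other 6 arrays. The 3′ minus 5′ difference of the ACTB probe sets, which grows as RNA breaks down, went in time order through 0.35, 0.31, 0.31, 0.27, 0.28, 0.24 and 0.10 on the log2 scale. The same difference for GAPDH lay between 0.15 and 0.25 up to 72 h and was 0.03 at 120 h. Both were lowest at 120 h. With the ACTB difference as a covariate only 19 slopes were called. It runs with time, so the 2 cannot be told apart in these arrays, and this touches every slope given here.

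**Figure D1:**
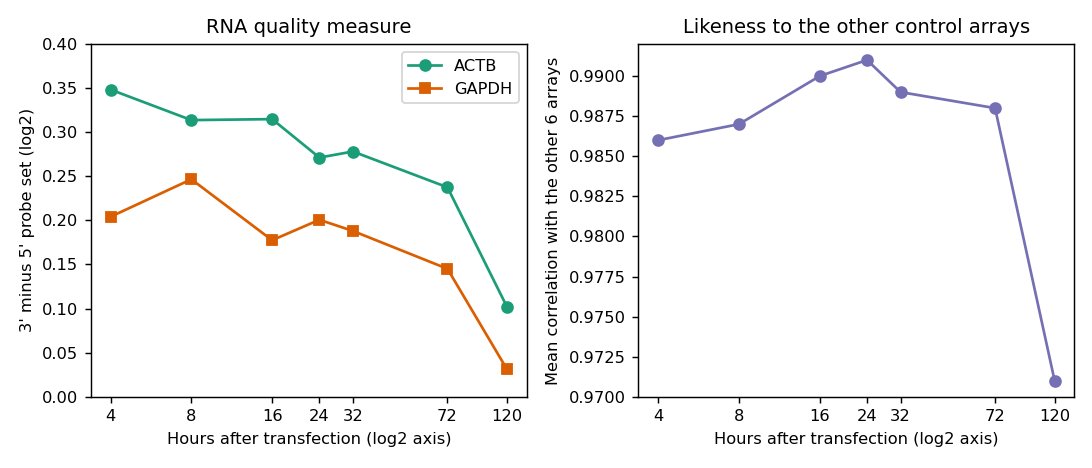
Left, the difference between the 3′ and the 5′ probe set of ACTB and GAPDH (log2) in the 7 control arrays against hours after transfection; right, each array's mean correlation over 13137 genes with the other 6, on an axis that does not start at 0. The ACTB difference goes from 0.35 at 4 h to 0.10 at 120 h, and the 120 h array has the lowest mean correlation, 0.971.

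Change with time was tested first over all genes. A slope was called for 1075 of 13137 genes, 8.18% of those tested, and 3671 genes had an unadjusted p under 0.05. Of these calls 355 rose, 2.7% of the genes tested, and 720 fell, 5.48%. With the arrays quantile normalized again the calls were 397 rising and 487 falling, so the share that rose moved from 33.0% to 44.9%. The late minus early difference was called for 347 genes, 2.64%, of which 186 were higher late, 1.42%, and 161 lower late, 1.23%. In each of the 347 the 2 late arrays lay outside the range of the 3 early ones. These genes were chosen by that difference in the same arrays, so the separation adds no support. The share of all genes with such a separation was not computed.

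The number of slopes called depended on single arrays. Leaving out the 8 h array gave 229, leaving out 24 h gave 425, and the 4 and 16 h arrays 475 and 486. Omitting the 120, the 72 and the 32 h array gave 575, 609 and 1112. The late minus early calls ran from 19 without the 4 h array to 3148 without the 72 h array, and omitting 8, 120 and 16 h gave 34, 143 and 219, with 54 when either the 24 or the 32 h array was omitted.

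Set against the 4 h array, which has no replicate and gives no test, large differences built up late. At 72 h 58 genes were at least 2-fold higher, 0.442% of those tested, and 54 at least 2-fold lower, 0.411%. At 120 h there were 189 higher, 1.44%, and 219 lower, 1.67%. Up to 32 h no array had more than 16 genes higher or 21 lower by that measure. Between neighbouring times the log2 differences had an SD over genes of 0.12 from 16 to 24 h, 0.20 from 32 to 72 h and 0.31 from 72 to 120 h. The last step alone held 119 genes at least 2-fold higher, 0.906%, and 33 at least 2-fold lower, 0.251%.

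Genes of cholesterol synthesis and uptake were higher in the late arrays, by about 2-fold at the median of the list. Of 25 genes on the list 19 had a probe set and were tested. Of these, 13 slopes rose and 0 fell, against 2.7% and 5.48% of all genes tested, and the median slope was 0.24 against 0.00. In the late minus early difference 14 of 19 were higher and 0 lower, against 1.42% and 1.23%, with a median of 1.01 against 0.00. Set against the 4 h array the list's median stood 0.19 higher at 16 h and 0.26 at 32 h, and then 1.05 and 1.001 higher in the late arrays. Called slopes numbered 5 without the 8 h array and 8 without the 120 h array, and late minus early calls 3 without the 4 h array, 5 without 8, 24 or 32 h and 9 without 120 h.

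HMGCS1, which makes the HMG-CoA from which mevalonate is formed, had levels of 9.91, 9.51, 10.30, 10.25, 10.45, 11.55 and 11.89 from the first time to the last. It dipped at 8 h, and both late arrays were above all others. Its slope was 0.46 ± 0.07 with an adjusted p of 0.015, and the late minus early difference of 1.82 ± 0.22 is a 3.52-fold change. MSMO1, which takes methyl groups off the sterol ring, had already reached 11.38 at 16 h from 10.53 at 4 h, and was 12.44 at 120 h. No other gene in the list had a smaller adjusted p, 0.0054 for a slope of 0.41 ± 0.03. The slope calls of both genes held without any single array, and the late minus early call of HMGCS1 was lost without 4 h.

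Further along the pathway DHCR7, which makes cholesterol from its last precursor, ran from a lowest value of 8.18 at 8 h through a median of 8.89 to 10.27 at 120 h. Its late arrays stood 2.95-fold above the early ones, 1.56 ± 0.20 on the log2 scale, with an adjusted p of 0.015. STARD4, a carrier of cholesterol between membranes, rose in 2 steps: it was 8.48 and 8.46 at 4 and 8 h, between 9.10 and 9.23 from 16 to 32 h, and 9.95 and 10.08 at 72 and 120 h. The slopes of SQLE, LSS, IDI1, MVD, FDPS, SC5D, EBP, HSD17B7 and ACAT2 also rose, from 0.21 for ACAT2 to 0.32 for IDI1. TM7SF2, a sterol reductase, was called only in the late minus early difference, at 0.71 with an adjusted p of 0.038.

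The remaining 5 members were not called. INSIG1, which holds the sterol switch in the endoplasmic reticulum, had a slope of 0.02 ± 0.03, and the phosphomevalonate kinase gene PMVK one of 0.03 ± 0.03. SREBF2, which encodes the sterol-regulated factor itself, ran from 8.07 at 4 h to 8.42 at 120 h with a slope of 0.06 ± 0.02 and an adjusted p of 0.12. The letters TCACNCCAC, a form of the sterol response element searched on both strands in the 250 bases before annotated start sites, were in the promoter of 1 of the 17 tested members with a promoter in the table, against 1.27% of 10545 tested genes. That one was SREBF2. Its window is shown because it is the only match in the list, on the plus strand of GRCh38.p14 at chr22:41832946-41833005, from RefSeq, 5′ to 3′ along the gene, with the match in capitals.
SREBF2: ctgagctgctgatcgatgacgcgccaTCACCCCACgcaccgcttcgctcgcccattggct

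Genes of fatty acid synthesis were also higher in the late arrays, with fewer calls. Of 12 tested genes 3 slopes rose and 0 fell, against 2.7% and 5.48% of all genes, with a median slope of 0.13 against 0.00. In the late minus early difference 6 genes were higher and 0 lower, against 1.42% and 1.23% of all genes. ACSS2, which turns acetate into acetyl-CoA, stayed between 7.73 and 7.99 up to 32 h and was 9.19 at 72 h and 9.71 at 120 h, a late minus early difference of 1.63 ± 0.15. FASN, the fatty acid synthase, ran from 9.80 through 10.30 to 11.35, and its highest value was at 72 h. The elongase ELOVL6 stood 2.94-fold higher late, from a range of 8.39 to 8.99 up to 32 h to 9.97 and 10.79, although its slope was not called, with an adjusted p of 0.098. The desaturase gene SCD was higher late by 0.87 ± 0.11. No slope of the list was called without the 8, the 72 or the 120 h array, and no late minus early difference without the 4 h array.

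**Figure D2:**
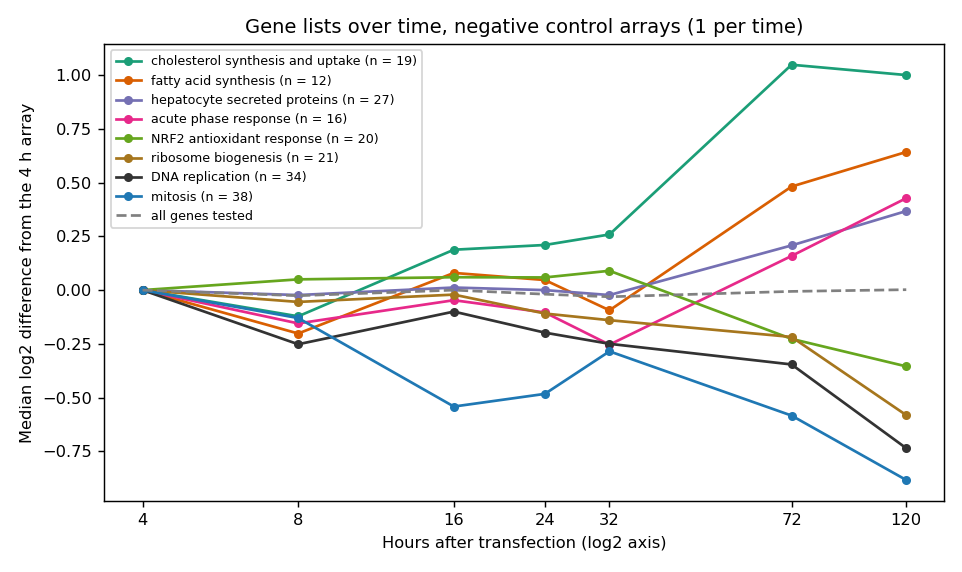
Median log2 difference from the 4 h array over the tested genes of 8 lists, and over all genes tested (dashed), against hours after transfection in the negative control arrays, 1 per time. Cholesterol genes reach 1.05 at 72 h, mitosis genes are at -0.54 at 16 h and -0.88 at 120 h, and the median of all genes stays within 0.03 of 0.

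The genes with the steepest rises outside these lists included several of liver function. HAL, histidine ammonia-lyase, which starts the breakdown of histidine in liver and skin, read 6.001, 6.26, 6.30, 6.36, 6.46, 8.08 and 9.16 over the 7 times in order. The array at each time was higher than the one before it, and most of the change lay after 32 h. The late arrays averaged 5.41-fold above the early ones, 2.44 ± 0.28 on the log2 scale, with an adjusted p of 0.012. The slope, 0.61 ± 0.12, was not called without the 8, 16, 72 or 120 h array, nor the late minus early difference without 4 or 8 h. The other HAL probe set with a mean above 6.19 had a slope of 0.177.

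FABP1, the fatty acid-binding protein of liver cytoplasm, lay between 10.16 and 10.49 in the 5 arrays up to 32 h and at 12.14 and 12.90 in the late ones. The groups did not overlap, and the late minus early difference was 2.19 ± 0.20, a 4.55-fold change, with an adjusted p of 0.0073. The course was flat and then steep, and its slope was not called, with an adjusted p of 0.072. SLCO4C1, an organic anion transporter, followed a like course, from 7.15 to 7.89 up to 32 h and 9.44 and 9.33 late, with a late minus early difference of 1.97 ± 0.14. ANGPTL8, a secreted protein that governs lipoprotein lipase, varied between 7.28 and 8.19 up to 32 h and was 9.25 at 72 h and 10.14 at 120 h. Its slope of 0.49 ± 0.12 was called at 0.045, and was not called without the 8, 16, 24, 72 or 120 h array. Its late minus early call was lost without 4, 8, 24, 32 or 120 h, while those of FABP1 and SLCO4C1 held without any single array.

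LPIN1, a phosphatidate phosphatase of triglyceride synthesis, rose with a slope of 0.41 ± 0.07, from 7.45 at 8 h to 9.57 at 72 h and 9.34 at 120 h. SERPINA6, the corticosteroid-binding globulin of plasma, rose from 9.78 and 9.76 at the first 2 times to 11.54 and 11.44 at the last 2. VNN1, a pantetheinase at the cell surface, ran from 5.70 at 8 h to 7.74 at 120 h, with 6.43 as the median. RAB3B, a small GTPase of secretory vesicles, and GDPD1, a phosphodiesterase of lysophospholipids, rose with slopes of 0.44 ± 0.06 and 0.45 ± 0.08. The other GDPD1 probe set with a mean above 6.19 had a slope of 0.129. The slope calls of SERPINA6, VNN1, RAB3B and GDPD1 held without any single array, and that of LPIN1 was lost without the 8 h array.

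Among 27 tested secreted proteins of hepatocytes 3 slopes rose and 0 fell, against 2.7% and 5.48% of all genes, with a median of 0.07. In the late minus early difference 7 genes were higher and 0 lower, against 1.42% and 1.23% of all genes. APOA1 and APOB, which build the lipoprotein shells, had slopes of 0.05 and 0.04 that were not called. TTR, the transthyretin that carries thyroid hormone and retinol-binding protein, had levels of 10.27, 10.27, 10.41, 10.49 and 10.52 up to 32 h, and of 11.71 and 12.19 late. Its late minus early difference of 1.64 ± 0.14 is a 3.11-fold change with an adjusted p of 0.0054, and its slope was not called without the 8, 72 or 120 h array. SERPINC1, antithrombin, was 2.10-fold higher late. APOE and APOC3, apolipoproteins of triglyceride-rich particles, were higher late by 0.60 ± 0.11 and 0.73 ± 0.09. The 3 fibrinogen genes were called late only: FGA by 0.84, FGB by 0.63 and FGG by 0.48. Without the 4 h array 1 of the 7 late calls was made, and without 72 h there were 16.

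Of 19 tested genes of hepatocyte metabolism 0 slopes fell, with a median slope of -0.01, and 4 rose, against 2.7% of all genes tested. They were HAL, the urea cycle gene ASS1 and 2 genes of drug clearance. UGT2B4, a glucuronosyltransferase, went from 8.78 at 4 h to 9.16 at 32 h and 10.14 and 10.05 late, a late minus early difference of 1.26 ± 0.09. CYP3A5, a cytochrome P450, had gained most of its rise by 32 h, from 6.16 at 4 h to 6.83, and was 7.25 at 120 h. CYP1A1, a P450 induced through the aryl hydrocarbon receptor, was singled out after its values were seen: it gave 10.86, 10.84, 8.44, 9.26, 11.16, 9.05 and 9.06 across the 7 arrays in time order. It crossed its own range more than once, and its slope was not called, at -0.34 ± 0.19.

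Of 13 tested liver transcription factors 3 rose and 2 fell, against 2.7% and 5.48% of all genes tested. NR0B2, the small heterodimer partner that represses bile acid synthesis, rose from 8.96 at 4 h through a median of 9.94 to 10.71 at 120 h. CEBPB, a factor of the acute phase and of stress, rose with a slope of 0.20 ± 0.04, and PPARA, which drives fatty acid oxidation, with one of 0.13 ± 0.03. FOXA1, a pioneer factor of liver identity, and ATF5 fell by 0.13 ± 0.03 and 0.19 ± 0.04 per doubling. Without the 8 or the 120 h array none of the 3 rises was called.

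Acute phase genes, which the liver raises in inflammation, gave 0 called slopes of 16 in either direction, against 8.18% over all genes. In the late minus early difference 4 were higher and 0 lower, against 1.42% and 1.23% of all genes. The 4 were HP, which encodes haptoglobin, and the fibrinogens FGA, FGB and FGG. Several of the others dipped and turned. SERPINA3, the antichymotrypsin, went from 12.06 at 4 h to 10.93 at 32 h, and the late arrays held 11.13 and then 13.08. CP, the copper carrier ceruloplasmin, ran from 9.69 at 4 h to a low of 8.52 at 32 h, with late levels of 9.21 and then 11.68. ITIH3 and CFB were at 8.22 and 8.07 at 32 h and at 10.42 and 9.83 at 120 h. None of these 4 was called in either test, and each was at its highest at 120 h. At 72 h SERPINA3, CP and ITIH3 were within or near the range of the earlier arrays, and CFB, at 8.81, was above it. ORM1, orosomucoid, had its lowest value, 11.88, at 120 h.

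A test of the squared time term asked which courses bent, and called 3 of 13137 genes, 0.0228%, 2 bending upward, 0.0152%, and 1 downward, 0.00761%, with 2403 at an unadjusted p under 0.05. ID3, an inhibitor of helix-loop-helix factors, had levels of 7.57, 9.05, 10.10, 9.86, 9.78, 9.61 and 8.94 from the first time to the last. Its level climbed up to 16 h and came down after it, with a squared term of -0.28 ± 0.03 and an adjusted p of 0.045. HHEX, a homeobox gene of early liver, went from 10.22 at 4 h to 9.05 at 32 h and was back at 9.77 at 120 h. MBL2, the mannose-binding lectin of plasma, had its lowest value of 7.23 at 16 h and its highest, 8.94, at 120 h. Squared terms were 0.14 ± 0.02 for HHEX and 0.20 ± 0.02 for MBL2, both with an adjusted p of 0.049. Without the 72 h array 594 genes were called, and without 4, 8, 24 or 120 h 0 were.

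**Figure D3:**
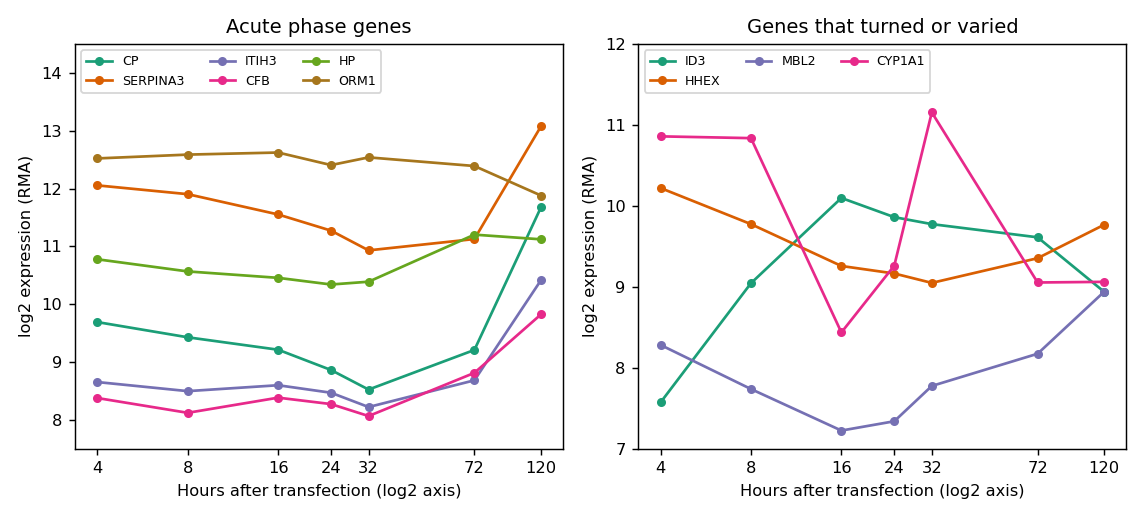
RMA log2 level against hours after transfection in the 7 control arrays, for 6 acute phase genes (left) and for the 3 genes with a called squared term and CYP1A1 (right). SERPINA3 and CP are lowest at 32 h and highest at 120 h, and ID3 peaks at 10.10 at 16 h.

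Genes of mitosis were lower in the later arrays, and much of the difference was already there at 16 h. Of 38 tested genes 25 slopes fell and 0 rose, against 5.48% and 2.7% of all genes, with a median of -0.16 against 0.00. The median difference from the 4 h array, from 8 h on, ran through -0.13, -0.54, -0.48, -0.28, -0.58 and -0.88. The list thus dropped between 8 and 16 h, recovered in part by 32 h and was lowest at 120 h. The 16 h array belongs to the early window, and 1 gene, SMC4 of the condensin complex, was called lower in the late minus early difference, by 0.63 ± 0.12. Called slopes numbered 4 without the 8 h array and 5 without the 4 h array, and omitting 120, 24 and 72 h gave 10, 13 and 16.

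KIF23, a kinesin of the midbody that finishes cell division, read 8.61, 8.29, 7.75, 7.91, 8.31, 7.68 and 7.01 over the 7 times in order. Its slope was -0.26 ± 0.06 with an adjusted p of 0.035. KIF11, the kinesin that pushes spindle poles apart, ran from 9.88 at 4 h to 9.26 at 16 h and, after 9.35 at 32 h, reached 8.58 in the last array. NCAPG, a condensin subunit, had reached 8.83 at 16 h from 9.54, kept between 8.71 and 8.83 until 72 h and was 8.22 at 120 h. The activator of the anaphase-promoting complex, CDC20, fell with a slope of -0.23 ± 0.04. CCNB1, PLK1, BIRC5, FOXM1 and CDK1, which drive or time entry into mitosis or its checkpoints, fell with slopes between -0.20 and -0.14. HMMR, a spindle assembly gene, lay between 9.99 and 10.34 with a slope of 0.00, and the proliferation marker MKI67 had a slope of -0.12 ± 0.05 that was not called, with an adjusted p of 0.12.

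Promoters of the mitosis list were searched for the cell cycle genes homology region, TTTGAA on either strand, an element of promoters that peak around cell division. In the 250 bases before annotated start sites, 19 of 32 members with a promoter in the table held it, 59.4%, against 12.3% of 10545 tested genes. The letters CCAAT were in 75% of the members and 41% of tested genes. A match describes the letters only. The windows below are shown because they belong to the 4 members with the largest slopes and to PLK1 and CDK1. They are from RefSeq on GRCh38.p14, 5′ to 3′ along the gene, all of genes on the plus strand, with the match in capitals (TTCAAA is the match read from the opposite strand). Their positions are chr15:69414268-69414327 for KIF23, chr10:92593070-92593129 for KIF11, chr4:17810918-17810977 for NCAPG, chr1:43358890-43358949 for CDC20, chr16:23678829-23678888 for PLK1 and chr10:60778418-60778477 for CDK1.
KIF23: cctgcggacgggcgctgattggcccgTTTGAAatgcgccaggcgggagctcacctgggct
KIF11: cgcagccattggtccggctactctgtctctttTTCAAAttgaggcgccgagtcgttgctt
NCAPG: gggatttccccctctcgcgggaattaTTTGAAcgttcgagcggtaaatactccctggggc
CDC20: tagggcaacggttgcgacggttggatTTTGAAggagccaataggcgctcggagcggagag
PLK1: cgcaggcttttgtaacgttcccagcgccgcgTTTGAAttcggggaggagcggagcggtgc
CDK1: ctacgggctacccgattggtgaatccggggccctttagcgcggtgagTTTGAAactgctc

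DNA replication genes were lower in the later arrays too, most of all at 120 h. Of 34 tested genes 17 slopes fell and 0 rose, against 5.48% and 2.7% of all genes, with a median of -0.13. In the late minus early difference 5 of these genes were lower and 0 higher, against 1.23% and 1.42% of all genes. The list's median difference from the 4 h array was -0.25 at 8 h and -0.10 at 16 h, then -0.20, -0.25, -0.35 and -0.74 at the later times, without the drop that mitosis genes had at 16 h. Called slopes numbered 6 without the 4, 8 or 24 h array, 7 without 120 h and 8 without 16 or 72 h, and no late call was made without any one array except 72 h, when there were 24.

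UHRF1, which carries DNA methylation through replication, gave 11.15, 10.71, 10.89, 10.33, 10.16, 10.10 and 9.48 across the 7 arrays in time order. Its slope was the steepest fall in the list, -0.31 ± 0.04, with an adjusted p of 0.012. RFC5, of the clamp loader, fell by 0.22 ± 0.04 per doubling, and the helicase subunits MCM5, MCM2, MCM4 and MCM6 by 0.15 to 0.19. Of 3 RFC5 probe sets with a mean above 6.19, 2 had a falling slope, and the highest slope was 0.065. PCNA, the sliding clamp, ran from 12.64 at 4 h through 12.50 to 11.95 at 120 h. FEN1, CDC6 and MCM10 had 120 h levels of 8.73, 8.90 and 7.87 against lowest values of 9.88, 9.88 and 9.22 in the other arrays, and none of the 3 slopes was called. The letters TTTCGCG, a form of the E2F site, were in the promoters of 4 of 30 members, 13.3%, against 2.25% of tested genes; the 4 were MCM6, MCM7, POLA2 and UHRF1.

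**Figure D4:**
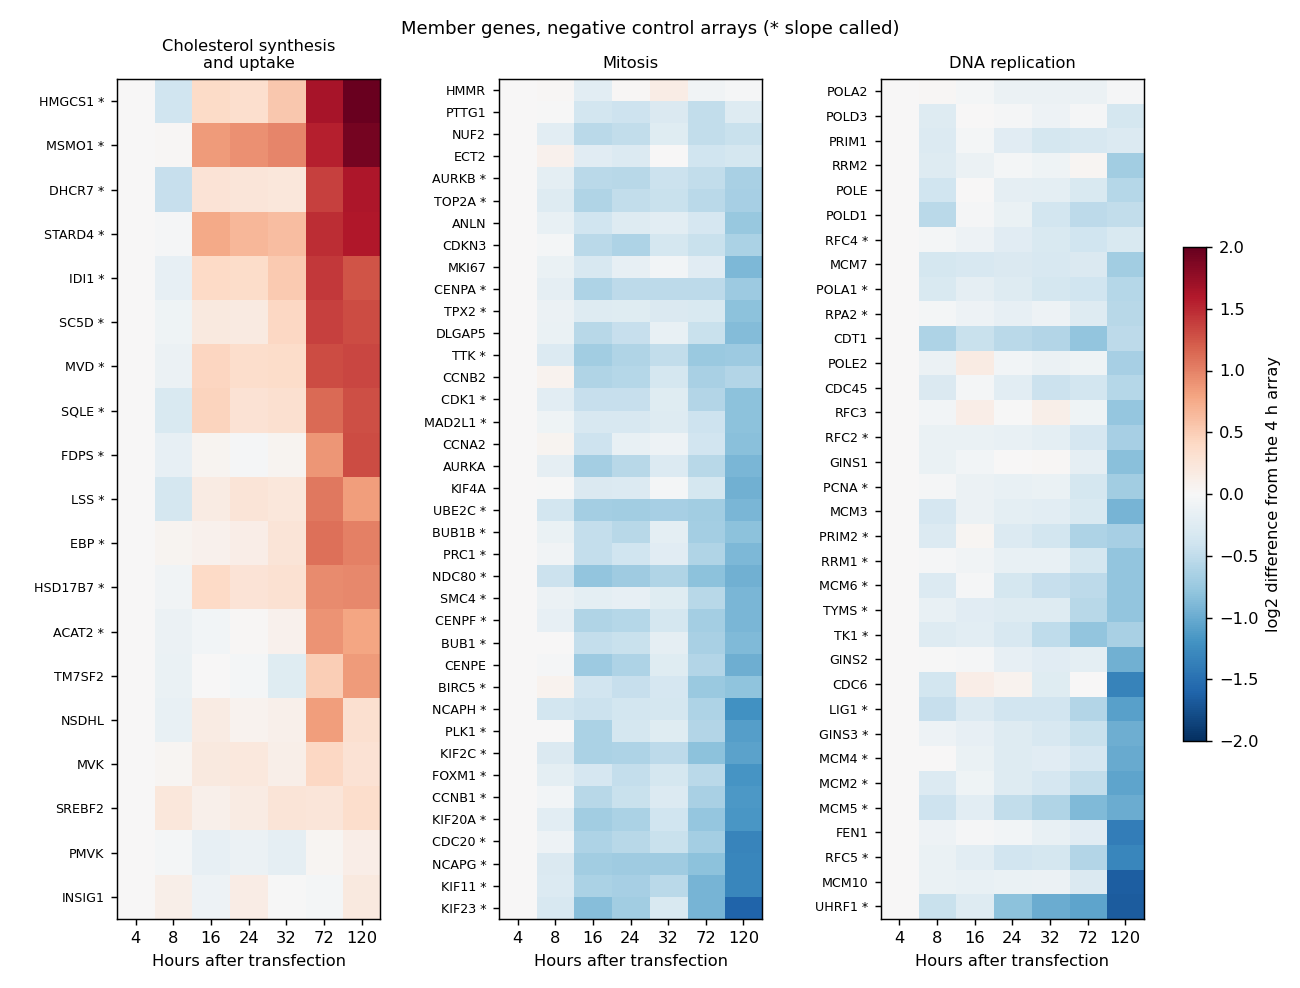
Log2 difference from the 4 h array in the 7 control arrays for each tested gene of cholesterol synthesis and uptake (19), mitosis (38) and DNA replication (34), ordered by slope; an asterisk marks a called slope. Cholesterol genes are highest in the 72 and 120 h columns, mitosis genes are low from 16 h on with a partial return at 32 h, and DNA replication genes are lowest at 120 h.

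Of 21 tested ribosome biogenesis genes 5 slopes fell and 0 rose, against 5.48% and 2.7% of all genes tested, with a median of -0.10. NOP58, of the snoRNA particles that methylate ribosomal RNA, went from 11.87 at 4 h to 11.49 at 32 h and 10.84 at 120 h. NIP7, POLR1C, RRP1B and NOLC1 fell with slopes of -0.15 to -0.08. None of the 5 calls was made without the 4 or the 8 h array, and 1 was made without 16, 24 or 120 h. The ribosomal protein genes themselves gave 0 calls of 19, against 8.18% over all genes, with a median slope of 0.01.

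The steepest fall of any gene was that of NPNT, nephronectin, a matrix protein that binds an integrin. It lay between 9.63 and 9.93 in the 5 arrays up to 32 h, at 7.93 at 72 h and at 6.36 at 120 h. The late arrays stood apart from all earlier ones, 6.50-fold below the early mean, a late minus early difference of -2.70 ± 0.38 with an adjusted p of 0.022. Its slope of -0.66 ± 0.16 was not called without the 8, 16, 24, 72 or 120 h array, and was 0.04 with the ACTB difference as a covariate. The late minus early call was lost without 4, 8, 24 or 32 h. The other NPNT probe set above the level minimum had a slope of -0.125. ACTA1, the actin of skeletal muscle, was highest at 8 h, at 9.39, and lowest at 120 h, at 6.84, with a slope of -0.43 ± 0.09 that was not called without 8, 24, 72 or 120 h. Its late minus early call was lost without any one array except 72 h.

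TNFRSF11A, the receptor RANK, fell from 7.66 at 4 h through a median of 6.94 to 5.72 at 120 h, with a slope of -0.39 ± 0.04 and an adjusted p of 0.0095. MAP3K8, a kinase upstream of ERK signalling, fell with a slope of -0.39 ± 0.06, a call lost without the 8 h array. SGK1, a kinase induced by serum and glucocorticoid, had most of its fall before 24 h: it was 9.24 at 4 h and 7.88 at 24 h, and the 3 arrays after that held 8.43, 7.46 and 7.80. That call was lost without the 4, 8 or 72 h array. MREG, melanoregulin, and ZNF451, a SUMO ligase, fell by 0.32 ± 0.05 and 0.31 ± 0.04 per doubling. Of 4 probe sets of ZNF451 above the level minimum, 2 had a slope of the same sign as the one used and the others ran up to 0.07, so the gene's direction is uncertain.

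The probe set of ND6, a complex I subunit encoded in the mitochondrial genome, fell by 0.33 ± 0.08 per doubling with an adjusted p of 0.046, and was not called without the 4, 8, 24, 72 or 120 h array. A probe set annotated to the locus of MIR3682, which does not measure the mature small RNA, was at 7.95 at 4 h, 7.24 at 72 h and 5.79 at 120 h. Its slope, -0.35 ± 0.09, was not called without any one of the 4, 8, 16 or 24 h arrays.

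Some genes of the NRF2 antioxidant response list were lower in the 2 late arrays. Of 20 tested genes 6 were lower and 0 higher in the late minus early difference, against 1.23% and 1.42% of all genes, with a median of -0.30. Of their slopes 3 fell and 1 rose, against 5.48% and 2.7% of all genes. HMOX1, heme oxygenase, had levels of 10.77, 10.88, 10.38, 9.90, 10.25, 9.33 and 9.06 from the first time to the last, a late minus early difference of -1.48 ± 0.18 that was not called without 4 or 8 h. GCLM and GCLC, the 2 subunits of the enzyme that limits glutathione synthesis, lay between 11.20 and 11.66 up to 32 h and between 10.44 and 10.92 late. SRXN1 and TXNRD1 were lower late by 0.88 and 0.58. KEAP1, a regulator of NRF2 and not an antioxidant gene, was lower late by 0.61. PGD, of the pentose phosphate pathway, was the one whose slope rose, 0.14 ± 0.03. Late calls numbered 0 without the 4 or 8 h array, 2 without 24, 32 or 120 h, 3 without 16 h and 12 without 72 h. The slope calls numbered 1 without 8, 16, 24, 72 or 120 h and 8 without 32 h.

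Of 22 tested p53 targets 5 slopes fell and 0 rose, against 5.48% and 2.7% of all genes tested. FAS, the death receptor, fell from 8.90 at 4 h to 8.14 at 32 h and 7.97 at 120 h with a slope of -0.24 ± 0.03. The p53 ligase MDM2, the phosphatase PPM1D, the sestrin SESN1 and the metabolic regulator TIGAR fell by 0.11 to 0.14 per doubling. CDKN1A, the p21 inhibitor of the cell cycle, lay between 9.97 and 10.40 with a slope of -0.04 ± 0.03 and an adjusted p of 0.36. Without the 4 h array 1 of the 5 was called, without 8 or 24 h 2, and without 16, 72 or 120 h 3.

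Lysosomal genes gave 7 rises and 0 falls of 27, against 2.7% and 5.48% of all genes tested, with a median slope of 0.03. NPC1 and NPC2, which pass cholesterol out of the lysosome, rose with slopes of 0.28 ± 0.05 and 0.17 ± 0.04, and NPC1 was 2.05-fold higher late. NEU1, HEXA, PSAP, CTSH and CTSB, which are hydrolases or their cofactors, rose by 0.09 to 0.16 per doubling. No slope of the list was called without the 8 h array, 1 was without 16 or 24 h and 3 without 72 or 120 h. Of 31 genes of the ATF4 amino acid response 4 rose, against 2.7% of all genes tested. They were CEBPB, DDIT3, PHGDH and TRIB3, with slopes of 0.14 to 0.20, and 1 was called without the 8, 24 or 120 h array and 2 without 4 h.

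Cell junction genes gave 3 rises and 0 falls of 21, against 2.7% and 5.48% of all genes tested. E-cadherin, CDH1, went from 7.85 at 4 h to 8.32 at 32 h, with 8.87 and 8.79 in the late arrays, a late minus early difference of 0.95 with an adjusted p of 0.016. The desmosomal cadherin DSG2 and the connexin GJB1 rose by 0.14 ± 0.02 and 0.13 ± 0.03, and none of the 3 was called without the 8 h array. In the extracellular matrix list TIMP1, TIMP2 and LOXL2 rose, 3 of 22, against 2.7% of all genes, with 1 called without the 4, 8 or 120 h array. Among replication-dependent histones, whose near-identical copies can share probes and are uncertain for that reason, H2BC21, H2BC12 and H2AC6 rose and H3C8 fell, of 9 tested. Of those rises 0 were called without the 8 h array and 1 without 4 or 24 h.

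Many programmes showed no called slope in either direction, against 8.18% of all genes tested. Lists this small hold few calls at that share, so 0 does not show that a programme was unchanged. Besides lists given above, those without a call were 25 genes of oxidative phosphorylation with a median slope of 0.00, 20 of glycolysis with 0.01 and 23 of the unfolded protein response with 0.00. Then came 23 targets of YAP and TEAD with -0.02, 15 of the small RNA machinery with -0.04 and 11 metallothioneins and zinc genes with -0.03. The last were 12 housekeeping references with 0.00 and 11 genes of the NF-kB response with 0.03. In that NF-kB list NFKBIA was called lower in the late minus early difference, at -0.71 with an adjusted p of 0.016. The metallothionein and zinc list stood 0.44 above 4 h at its median at 32 h. Of the YAP and TEAD targets ANKRD1 was 2.39 higher at 120 h than at 4 h, and THBS1 had a late minus early difference of -1.19. Of 26 hypoxia genes 2 rose, VEGFA and ERO1A, and 1 fell, EGLN1. Among 26 interferon genes 1 rose, OAS1, by 0.19 ± 0.03. Of 20 immediate early genes DUSP5 and JUND rose and IER5 fell, and of 16 apoptosis regulators FAS and BIK fell. Leaving out single arrays lost 45 of 67 called slopes among the genes named by rule when the 8 h array was omitted, 30 for 120 h, 26 for either 4 or 24 h, 25 for 72 h, 22 for 16 h and 8 for 32 h.

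The 7 miR-124 arrays, which the control slope did not use, gave the same measure in other cells. Of the 355 genes that rose in the control, 304 had a positive slope after miR-124, 85.6%, against 48.2% of all genes tested. Of the 720 that fell 616 had a negative slope, 85.6%, against 51.8%. With a call required in both courses the rising genes were 227, which is 63.9% of the control list and 12.6% of the 1796 genes called rising after miR-124, themselves 13.7% of those tested. The falling genes were 324, 45% of the control list and 30.6% of the 1059 called falling after miR-124, 8.06% of those tested and 21.7% with the rising ones. Genes called in opposite directions numbered 1 and 19.

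The slope difference, miR-124 minus control, tested where the courses parted, with the arrays of a time as a pair. It was called for 1127 genes, 8.58%, of which 908 were higher after miR-124, 6.91%, and 219 lower, 1.67%. Quantile normalizing again gave 669 and 299, which moves the higher share from 80.6% to 69.1%. Calls ran from 223 without the 8 h pair to 2338 without the 120 h pair, with 444, 565 and 662 without 4, 16 and 24 h, and treating the arrays as unpaired left 691. Among the genes with a called control slope it was called for 70 of the 355 rising and 91 of the 720 falling. The control arrays that chose these genes also enter the difference. The ACTB 3′ minus 5′ difference, 0.35 at 4 h and 0.10 at 120 h in the control, showed no such fall after miR-124. There it was 0.35 at 4 h, 0.56 at 24 h and 0.41 at 120 h. This measure of RNA quality thus also parted between the courses with time, and its share in the slope differences was not tested. At 4 h the 18S ribosomal RNA level was 11.05 after miR-124 against 8.70 in the control.

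For cholesterol synthesis 1 of 19 differences was called, HMGCS1, whose slope was 0.28 after miR-124 against 0.46 in the control, and the list's median slopes were 0.23 and 0.24. For mitosis and DNA replication 0 of 38 and 0 of 34 were called, against 8.58% of all genes, 1.67% of them lower. The median slopes of these 2 lists were -0.45 and -0.27 after miR-124 against -0.16 and -0.13 in the control. At 72 h their median differences from 4 h were -2.68 and -1.74 after miR-124 against -0.58 and -0.35 in the control. At 120 h they were -1.58 and -0.885 against -0.88 and -0.74. A straight slope fits such a partial return poorly, so 0 calls do not show equal courses. HAL, ANGPTL8 and SLCO4C1, which rose in the control, had slopes of 0.01, 0.01 and 0.03 after miR-124, and each difference was called, at -0.60 ± 0.11, -0.48 ± 0.09 and -0.44 ± 0.11. The call for HAL was lost without the 8 h pair. FABP1 had a slope of 0.08 after miR-124 against 0.50. NPNT, which fell in the control, had a slope of 0.01 after miR-124, a difference of 0.67 ± 0.11 with an adjusted p of 0.015. HAL, ANGPTL8, SLCO4C1, FABP1 and NPNT were named for large changes in the same control arrays. That choice favours a difference opposite to the control change.

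Other genes with a called difference had small control slopes or a late turn in the control. The transcription factor MAF, the steroidogenic carrier STAR and the histones H1-2, H2BC21 and H2BC5 had differences from 0.70 to 0.83, while their control slopes lay between -0.08 and 0.19. In the control MAF lay between 5.40 and 6.15 and STAR between 5.85 and 6.38, near or below the level minimum of 6.19. Both passed that minimum only through their miR-124 arrays, so their control slopes hold little signal. On the lower side LOX, a collagen crosslinking enzyme, SERPINA3, CP and the collagen hydroxylase P4HA1 had differences of -0.76, -0.75, -0.66 and -0.49. In the control each of those 4 was highest at 120 h, between 10.62 and 13.08. Without the 8 h pair the differences of LOX, SERPINA3, CP, H1-2 and H2BC5 were not called, and that of LOX was also lost without 4, 16, 32 or 72 h. TTR and HMOX1 had nearly equal slopes in the 2 courses, with differences of 0.01 ± 0.03 and -0.04 ± 0.07.

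**Figure D5:**
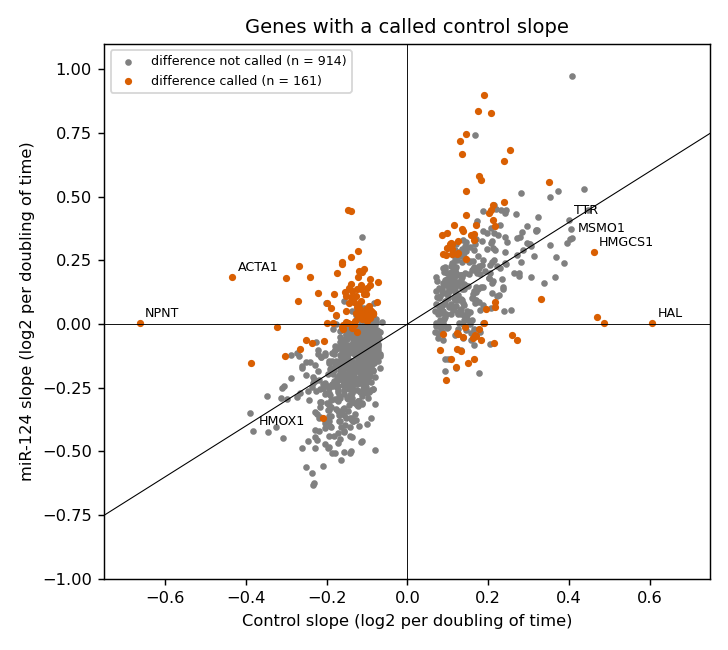
Slope after miR-124 against slope in the negative control, both in log2 per doubling of time, for the 1075 genes with a called control slope; orange points are the 161 genes whose slope difference was called, and the diagonal marks equal slopes. HAL and NPNT lie at 0.61 and -0.66 on the control axis and near 0 on the miR-124 axis.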

How the data were processed

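Total RNA of HepG2 cells was hybridised to one-colour oligonucleotide arrays, 1 per transfection and time. The deposited table holds log2 expression for each probe set; the submitters' processing notes name RMA, and its version is not given in the sources used here. That the scale is log2 was read from the range, 2.93 to 14.4, and no value was missing. RMA makes the distributions of arrays alike, so a change in total messenger RNA per cell cannot be seen. No 2 arrays were identical. The number of arrays limits the precision.

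Of 54675 probe sets 62 were controls, 41091 had 1 gene symbol, 1801 several and 11721 none listed. Each of 19775 genes was represented by its probe set of highest mean (over 14 arrays), and 13137 genes with a mean above 6.19, the median over probe sets, were tested. Tests used limma 3.58.1 in R 4.3.3 (lmFit and eBayes, two-sided): a slope on log2 hours, 3 time windows as a factor, a squared time term, and a slope of the miR-124 minus control log2 difference over the times. That last fit pairs arrays by their labelled time. Deviations from the group means correlated at 0.21 to 0.48 between arrays of a time, above 0.1 at each of the 7 times. The control fits use 1 group and have no pairs.

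The comparison, its members and the 42 gene lists, with 938 genes of which 747 were tested, were chosen with earlier results of these data known. Genes were named by a rule: the 10 steepest called slopes each way, the 5 largest calls each way of the other tests, the 4 members of each list with the largest slope, and the markers. Other called list members are named to fill counts. Alternatives varied the scaling, the probe set, the level minimum, the variance model, a 1.5-fold minimum, the time scale, the windows, an RNA quality covariate and single arrays. On simulated data over 13137 genes, slopes of 0.2 were recovered for 83% of changed genes and slopes of 0.4 for 99%. Late minus early differences of 0.75 were recovered for 74%, and slope differences of 0.2 between the courses for 59%. The simulated noise was independent between genes and arrays, while genes in the real arrays share deviations. These shares therefore do not give the reliability of the calls made here. Promoter sequences came from RefSeq (GRCh38.p14). Plots used matplotlib 3.10.9 (Python 3.11.15).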

Additional observations from a re-analysis of the deposited data

Results flagged for a closer look

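Each control array was compared with the other 6 for 199 measures: 5 array measures and the levels of the 194 genes named by rule. In 40 the highest or lowest array lay far from its nearest neighbour, by a gap over range above Dixon's critical value, which chance passes in about 1 in 20 groups of like samples. The 7 arrays differ in time and the measures share them, so that rate is only a guide, and a late change also produces such a gap. The mean correlation of the 120 h array with the others, 0.971, was one of them. Of the 39 genes, 35 had the far value at 120 h, 22 as the highest and 13 as the lowest. Most of the 194 genes were named for large changes with time, which favours a far value at an end of the course. The share of all genes tested with such a gap was not computed.

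Genes highest at 120 h included the acute phase genes CP at 11.678, ITIH3 at 10.417 and CFB at 9.825, and the lipoprotein gene APOM at 12.005. In the same direction stood ASNS, the asparagine synthetase, at 11.025, PCK2 at 9.889, WIPI1 at 9.512, ABCB4 at 8.24, ICAM1 at 9.866, HLA-B at 11.142, IGFBP3 at 6.876 and NT5E at 7.545. Genes of the hypoxia list among them were P4HA1 at 10.623, BNIP3L at 10.229, MXI1 at 9.707 and ANKRD37 at 8.241, and the glycolysis gene ALDOC was at 9.03. The ribosomal protein genes RPS3, RPL14 and RPL3 were at 13.26, 13.107 and 12.788, and AGO4 and XRN1 of RNA silencing and decay at 7.82 and 7.405. Genes lowest at 120 h included FEN1 at 8.727, MCM10 at 7.866 and CCNE2 at 5.474, 2 genes of DNA replication and a cyclin. The others were the MIR3682 locus at 5.791, DNAJA1 at 11.116, TBP at 8.657, FOSL1 at 7.239, IGF2BP1 at 9.036, ATP5MC1 at 10.089, TNRC6A at 9.182, CRELD2 at 9.338, SSR1 at 12.074 and ZNRF3 at 8.688. At 4 h ID1 at 9.323, ANKRD1 at 6.701 and SLC17A7 at 7.402 were far below their other values, and TUBB3 at 12.081 far above.

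The slope difference, miR-124 minus control, was called for 48 of the 194 genes, 30 higher and 18 lower after miR-124. Over all genes tested it was called for 8.58%, with 6.91% higher and 1.67% lower. Some of the 194 genes were named for the largest calls of this same difference, and others for their control slopes. The count therefore does not show that the difference was more common among them. Among genes with the largest changes in the control the slope difference was negative for HAL at -0.601, ANGPTL8 at -0.481 and SLCO4C1 at -0.44. It was also negative for FABP1 at -0.419, MBL2 at -0.266 and HMGCS1 at -0.177. NPNT and ACTA1 had positive differences of 0.669 and 0.619, and MREG and MAP3K8 of 0.309 and 0.236. These genes were named for their change in the control arrays, which also enter the difference. That choice favours a difference opposite to the control change, so these signs add no support. The largest positive values were 0.832 for MAF, 0.823 for STAR, 0.735 for H1-2, 0.709 for H2BC21 and 0.703 for H2BC5, and the histones H2AC6 and H2BC4 were at 0.6 and 0.595. MAF and STAR passed the level minimum only through their miR-124 arrays. On the negative side stood LOX at -0.759, SERPINA3 at -0.748, CP at -0.656 and P4HA1 at -0.493.

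Other list members with positive differences were the p53 targets FAS at 0.426, SESN1 at 0.329, PPM1D at 0.246 and TRIAP1 at 0.166, and TIMP2 at 0.533, MYL9 at 0.524, HSPB8 at 0.487, CYP3A5 at 0.429, ARRDC4 at 0.403, CDH1 at 0.402 and CDH16 at 0.401. Smaller ones were those of THBS1 at 0.317, ACTA2 at 0.265, PFKP at 0.262, TNRC6A at 0.258, LATS2 at 0.257, STEAP3 at 0.205, FOSL1 at 0.198 and HLA-B at 0.149. Negative differences were found for the zinc importer SLC39A10 at -0.291, AQP3 at -0.273, CCNG2 at -0.232, PCK2 at -0.225, DSG2 at -0.19, TFRC at -0.169, GJB1 at -0.166 and HK2 at -0.132.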

How the results depend on the processing

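The control slope was called for 1680 probe sets when every probe set was tested, 665 genes with a 1.5-fold minimum, 2857 on hours in place of log2 hours and 19 with the ACTB difference as a covariate, under which none of the 67 called slopes of genes named by rule was called. Over 4 to 32 h alone 37 were called and over 16 to 120 h alone 41, both chosen after seeing the data. Without 1 array the control slope had 229 to 1112 calls. The control late minus early difference had 589 calls over all probe sets, 193 under a 1.5-fold minimum, 54 on the 5 arrays of its windows, 784 with 16 h moved to the middle window, and 19 to 3148 without 1 array. The control curvature had 3 calls, and 1 with arrays quantile normalized again or a mean above the third quartile, 5 with probe sets averaged, 0 with every probe set, 37 with no level minimum, 13 with a trended, robust variance, and 0 to 594 without 1 array. The slope difference miR-124 minus control had 1127 calls, 1701 with every probe set, 223 to 2338 without 1 pair, and 691 with no replicate block. No paired analysis was possible for the control fits because they use 1 group.

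Sign changes are listed only for genes named by rule whose slope was called in the main fit or under the changed setting. With the ACTB covariate these were NPNT at 0.0356, MIR3682 at 0.104, BNIP3L at -0.634, POLR1C at 0.00495 and CCNG2 at -0.0498. Over 4 to 32 h they were CP at -0.364 and LOX at -0.261. Other slopes that changed sign without a call in either setting are not listed. The cause of these changes was not tested. Centring each array on its median or quantile normalizing again turned no slope of a gene named by rule that had been called. One array per time gives no spread at a time, and levels near 6.19 hold little signal over background.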

Other observations

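A family noticed in the results, after values were seen, was that of genes with ZNF symbols, most of which encode zinc finger transcription factors. Of 312 tested, 30 had a falling slope and 0 a rising one, against 5.48% and 2.7% of all genes. Their median slope was -0.02 against 0.00, and 11 were lower and 0 higher in the late minus early difference. Among 260 transporter genes with SLC symbols, taken in the same way, 9 slopes rose and 6 fell.

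In the metallothionein and zinc list, which gave no called slope, the letters TGCACNC of the metal response element were in the promoters of 4 of 7 members with a promoter in the table, MT1H, MT1X, MT2A and SLC30A1, against 13.1% of tested genes. The letters TGATGNAA, a form of the element bound by ATF4 with its partners, were in 6 of 25 promoters of the ATF4 list, 24%, against 2.5%. None of these 6, ATF3, ASNS, CHAC1, CEBPG, AARS1 and GARS1, was among the 4 members of that list whose slope rose.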
